A study of Danio rerio with 16 samples.

Results

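Transcript levels of 10 zebrafish genes through which glucocorticoids are known to act on muscle breakdown and growth were followed in whole larvae with and without a functional glucocorticoid receptor (GR), raised with or without cortisol. The genes were chosen by name and role, with earlier results of these data known. They are the ubiquitin ligase genes fbxo32, trim63a and trim63b, the FoxO factor genes foxo1a and foxo3b, the myostatin gene mstnb, the glutamine synthetase genes glula and glulb, and the growth factor genes igf1 and igf2b. Of these 10 genes, 7 were matched by symbol to a gene ID. The gene name table gives the name FOXO1 to 2 IDs and the name GLUL to 2 IDs without saying which copy is which, so all 4 of these are reported under their IDs. The 10 genes thus stand for 11 of the 22994 genes measured.

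RNA-seq had been done on 16 pools of 8 whole larvae at 5 days post fertilization, with 4 pools in each of 4 groups. VBA- cortisol and VBA- vehicle larvae were homozygous for GR369-, a CRISPR-made frameshift allele of nr3c1, the gene of the GR, in the AB background. VBA+ cortisol and VBA+ vehicle larvae were their siblings, a mixture of wild type and heterozygotes. Genotype was assigned by visual background adaptation (VBA), a GR-dependent camouflage response of pigment cells, and not by sequencing of each larva. Cortisol groups had developed in 1 uM cortisol from a few hours after fertilization, and vehicle groups in the solvent DMSO. Each condition was kept in 1 dish, and dishes were harvested in turn, so that dish and order of harvest cannot be told apart from condition, and p-values measure only the spread between pools.

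In vertebrate muscle, insulin-like growth factors signal through PI3 kinase and Akt to promote protein synthesis and to keep FoxO transcription factors out of the nucleus. Glucocorticoids work against this pathway. In mammals the GR and FoxO factors raise expression of the muscle ubiquitin ligases MAFbx (gene fbxo32) and MuRF1 (gene trim63), which mark muscle proteins for the proteasome, and glucocorticoids also induce glutamine synthetase, which exports amino groups from wasting muscle as glutamine.

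Values are normalized counts, scaled by the authors so that each library holds the same sum of 14653434, and sequencing depth is therefore unknown. Fold changes and their standard errors (SE) are on the scale of log2(normalized count + 0.1), in limma with Benjamini-Hochberg adjustment over 21686 genes. The limits for a call were 0.05 for the adjusted p, 0.5 for the size of the log2 fold change, 1 for its SE and 75 for the mean normalized count. Of the 11 genes, 8 reached that mean. The others, mstnb, igf1 and FOXO1 (ENSDARG00000061549), could not be called whatever their change. Among all 21686 genes tested, 13772 reached that mean. Shares of all genes called are over the 21686 and are thus lower than among genes that could be called.

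As a check of the genotype labels, log2 values of nr3c1 averaged 8.55 ± 0.57 in VBA- cortisol and 8.81 ± 0.43 in VBA- vehicle libraries, against 9.48 ± 0.09 in VBA+ cortisol and 9.33 ± 0.16 in VBA+ vehicle libraries (SD, n = 4 each). The VBA- cortisol libraries had 592, 412, 352 and 228 normalized counts of nr3c1, all below the 670 to 772 of VBA+ cortisol libraries. The VBA- vehicle libraries had 511, 356, 643 and 343, so that replicate 3 lay within the 580 to 732 of VBA+ vehicle libraries. The GR target gene fkbp5 had log2 values of 8.95 in VBA- cortisol replicate 1 and 8.71 in VBA- vehicle replicate 1, within the 8.42 to 8.99 of the VBA+ vehicle libraries, while the other VBA- libraries had 3.34 to 6.94. VBA- vehicle replicate 3 thus goes against its genotype label at nr3c1, and both replicates 1 at fkbp5. Markers of skeletal muscle were strongly present in every library. Summed over the 10 of 18 skeletal muscle markers matched, they ranged from 910409 to 1056386 normalized counts in VBA- cortisol, 878171 to 1011871 in VBA- vehicle, 1044375 to 1081005 in VBA+ cortisol and 881856 to 977223 in VBA+ vehicle libraries. The sums of VBA+ cortisol libraries lay above those of VBA+ vehicle libraries without overlap, but the median log2 fold change of the 10 markers was 0.0, and 2 of them, atp2a1 and smyhc1, rose. The calcium pump gene atp2a1 had 187032 normalized counts in every VBA+ cortisol library, against 71694 to 121446 in VBA+ vehicle libraries, while a gene named TNNT3, which shares its name with another copy and is not in the sum, fell to 71694 in all VBA+ cortisol libraries, against 121446 in all VBA+ vehicle libraries. Both genes take the values 71694 and 121446, because the normalization gives every library the same set of values. For such abundant genes these are changes of rank, and the size of a change is set by the steps between ranks. The summed markers share this limit. Because whole larvae were sequenced, more cells of a type and more RNA per cell cannot be told apart, and the part of muscle content in the results on cortisol in VBA+ larvae was not tested.

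Between cortisol and vehicle, 2 of the 11 genes were called in VBA+ larvae, both higher with cortisol. These were igf2b, at 1.83-fold, and foxo3b, at 1.5-fold. In a fit with a term for replicate number (the replicate block) neither was called. With all 16 libraries in the fit foxo3b was not called. For comparison, 8.22% of all genes tested were called in this contrast in either direction, and 3.6% were called higher. The median log2 fold change of the 11 genes was 0.13, beside -0.01 over all genes. An unadjusted p under 0.05 was found for 4 of the 11, igf2b, foxo3b, fbxo32 and FOXO1 (ENSDARG00000099555), and for 34.6% of all genes. No gene of the 11 was called in VBA- larvae, between genotypes in either medium, or for a difference of the cortisol effect between genotypes. Over all genes, 0% were called for cortisol in VBA- larvae, and 0.235% between genotypes in vehicle. Between genotypes in cortisol 0% were called, and 0.00461% for the difference of the cortisol effect.

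**Figure D1:**
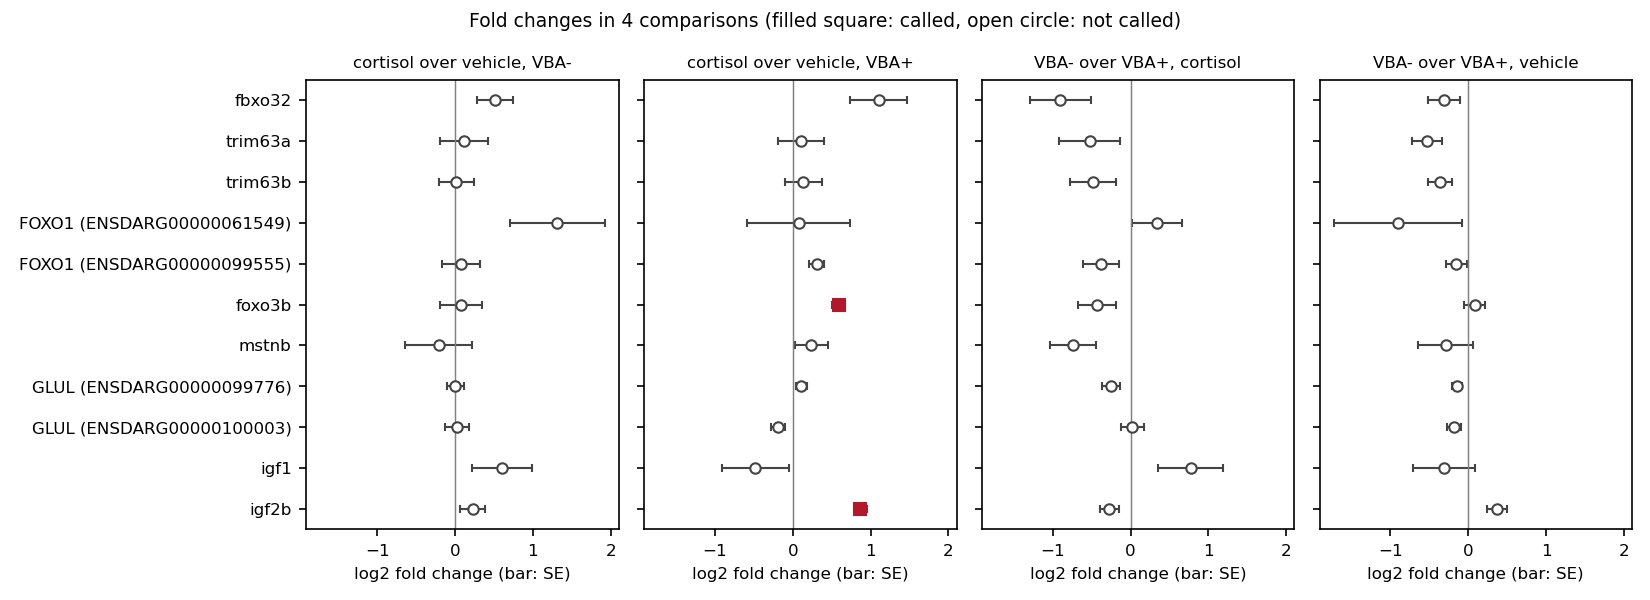
Log2 fold changes with SE of the 11 genes in 4 comparisons (4 libraries against 4 in each), with filled squares for called genes and open circles for the others. Filled squares appear only for igf2b at 0.87 and foxo3b at 0.59, both for cortisol over vehicle in VBA+ larvae.

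The growth factor gene igf2b (ENSDARG00000033307) encodes an insulin-like growth factor that acts mainly in embryonic growth. RefSeq lists the names igf2a and igf2b each as a synonym of the other, so that the name rests on the gene name table. Its normalized counts were 588, 547, 562 and 578 in VBA+ cortisol libraries, against 284, 311, 336 and 317 in VBA+ vehicle libraries. Every cortisol library thus exceeded every vehicle library, and the gap between the groups was wider than the range within either. The log2 fold change was 0.87 ± 0.08 (SE, limma adjusted p 0.00204). In the fit with the replicate block it did not pass the test (limma adjusted p 0.0773). Of the 11 genes 3 had VBA+ groups that did not overlap, as had 20.2% of all genes tested.

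In VBA- larvae igf2b had 418, 412, 542 and 526 normalized counts with cortisol, against 372, 334, 437 and 485 with vehicle. The cortisol libraries spanned 412 to 542 and overlapped the vehicle libraries. This difference, 0.22 ± 0.16 on the log2 scale, did not pass the test (SE, limma adjusted p 1.0). Within replicates 1 and 2, and within replicates 3 and 4, the VBA- cortisol libraries were the higher ones, by 1.18-fold and 1.16-fold. Each exceeded the vehicle library of its own number, but this comparison was not treated as paired. With the replicate block the limma adjusted p was also 1.0. The order of the group means was therefore VBA+ cortisol, VBA- cortisol, VBA- vehicle and VBA+ vehicle, with mean log2 values of 9.15 ± 0.05, 8.88 ± 0.21, 8.65 ± 0.24 and 8.28 ± 0.10 (SD, n = 4 each). With cortisol, all VBA- libraries lay below all VBA+ libraries, but the difference of -0.27 ± 0.13 did not pass the test (SE, limma adjusted p 0.591), and 4.17% of all genes did not overlap there. With vehicle the direction was the opposite, at 0.37 ± 0.13 (SE, limma adjusted p 0.244, or 0.146 in a fit with the replicate block). This contrast and the cortisol contrast in VBA+ larvae share the VBA+ vehicle libraries, in which igf2b was lowest. Mean sums of 8 liver markers were 102700 in VBA- cortisol, 116700 in VBA- vehicle, 100700 in VBA+ cortisol and 81050 in VBA+ vehicle libraries. The part of liver content in the igf2b values was not tested.

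The cortisol effect on igf2b in VBA- minus that in VBA+ larvae was -0.64 ± 0.18 on the log2 scale (SE). That difference had an unadjusted p of 0.00215 and did not pass the test over all genes (limma adjusted p 0.726). It was -0.63 without the 2 VBA- libraries that had a VBA+ level of fkbp5, an alternative added after seeing the data. The paralog igf2a behaved differently in VBA+ larvae. It had 189 to 304 normalized counts with cortisol and 222 to 300 with vehicle, with a log2 fold change of -0.11 ± 0.17 (SE, limma adjusted p 0.667).

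Transcripts of igf1 (ENSDARG00000094132), the growth factor that carries most of the growth hormone effect in the juvenile and adult, were scarce in these larvae. It had 12, 11, 14 and 23 normalized counts in VBA- cortisol and 10, 6, 11 and 12 in VBA- vehicle libraries. VBA+ cortisol libraries had 5, 10, 14 and 7, and VBA+ vehicle libraries 15, 12, 7 and 15. All groups overlapped, although each VBA- cortisol library exceeded the VBA- vehicle library of its number, in a comparison not treated as paired. Its log2 fold change with cortisol was 0.60 ± 0.39 in VBA- and -0.48 ± 0.43 in VBA+ larvae (SE, limma adjusted p 1.0 and 0.444). Between genotypes it was 0.77 ± 0.42 in cortisol and -0.31 ± 0.40 in vehicle, and the cortisol effect in VBA- minus that in VBA+ larvae was 1.08 ± 0.56 (SE, limma adjusted p 0.591, 0.762 and 0.726). None of these differences passed the test.

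**Figure D2:**
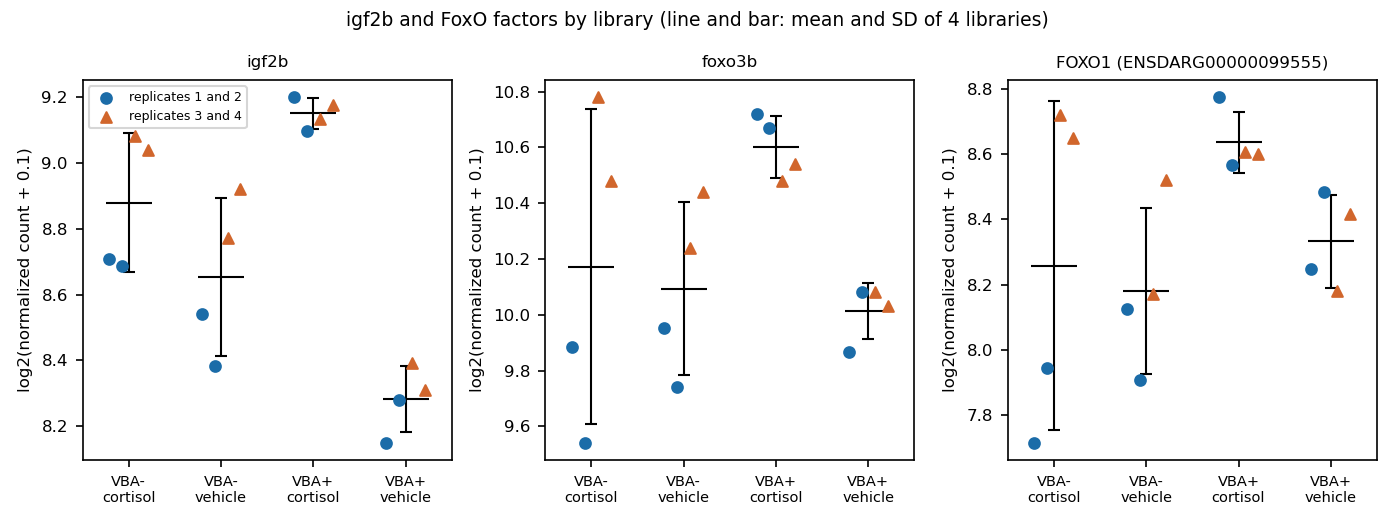
Log2 normalized counts of igf2b, foxo3b and FOXO1 (ENSDARG00000099555) in each of the 16 libraries, with the mean and SD of each group of 4. For all 3 genes the VBA+ cortisol libraries sit above the VBA+ vehicle libraries. The VBA- cortisol libraries are spread widely for foxo3b, from 745 to 1764 normalized counts, and for FOXO1 (ENSDARG00000099555), from 210 to 422. For igf2b they range from 412 to 542.

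FoxO factors are the transcription factors that insulin and IGF signaling holds in check. The gene foxo3b (ENSDARG00000042904) had 1682, 1632, 1430 and 1485 normalized counts in VBA+ cortisol libraries, against 934, 1080, 1080 and 1048 in VBA+ vehicle libraries. The groups were separate, and the log2 fold change was 0.59 ± 0.08 (SE, limma adjusted p 0.00813). It did not pass with all 16 libraries in the fit (limma adjusted p 0.158) or with the replicate block. Because the groups were separate, any split of them gives the same direction. The difference was 1.65-fold in replicates 1 and 2 and 1.37-fold in replicates 3 and 4. In VBA- larvae foxo3b had 944, 745, 1764 and 1430 normalized counts with cortisol, against 990, 856, 1212 and 1390 with vehicle. Both VBA- groups were thus split between low replicates 1 and 2 and high replicates 3 and 4, and cortisol gave a difference of 0.08 ± 0.27 (SE, limma adjusted p 1.0). The cortisol effect in VBA- minus that in VBA+ larvae was -0.51 ± 0.30 (SE), which did not pass the test (limma adjusted p 0.726). Between genotypes foxo3b differed by -0.43 ± 0.25 in cortisol (SE, limma adjusted p 0.591) and by 0.08 ± 0.14 in vehicle (SE), which did not pass the test either.

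FOXO1 (ENSDARG00000099555), 1 of the 2 genes that share this name, had 438, 379, 390 and 388 normalized counts in VBA+ cortisol libraries, against 304, 358, 290 and 342 in VBA+ vehicle libraries. These groups did not overlap either, but the log2 fold change of 0.31 ± 0.10 was below the limit of 0.5 and did not pass the test (SE, limma adjusted p 0.0602). In VBA- larvae this gene had 210, 246, 422 and 402 with cortisol and 279, 240, 288 and 367 with vehicle, with the same low replicates 1 and 2 as foxo3b in the cortisol group. Cortisol gave 0.08 ± 0.25 there, and the effect in VBA- minus that in VBA+ larvae was -0.23 ± 0.28 (SE, limma adjusted p 1.0 and 0.786). Between genotypes it differed by -0.38 ± 0.23 in cortisol, or -0.20 without VBA- cortisol replicate 1, and by -0.15 ± 0.14 in vehicle (SE, limma adjusted p 0.591 and 0.647 with all libraries). The other gene, FOXO1 (ENSDARG00000061549), was at 3 to 47 normalized counts over all libraries. It ranged from 20 to 30 in VBA- cortisol, 3 to 22 in VBA- vehicle, 12 to 28 in VBA+ cortisol and 4 to 47 in VBA+ vehicle libraries, and every pair of groups overlapped. Its differences were 1.32 ± 0.61 for cortisol in VBA-, 0.07 ± 0.66 for cortisol in VBA+, 0.34 ± 0.32 between genotypes in cortisol, -0.90 ± 0.83 in vehicle and 1.24 ± 0.98 for the interaction (SE, limma adjusted p 1.0, 0.948, 0.644, 0.656 and 0.726). The paralog foxo3a had 864 to 1472 normalized counts in VBA+ cortisol and 826 to 912 in VBA+ vehicle libraries, a difference of 0.44 ± 0.15 on the log2 scale that did not pass the test (SE, limma adjusted p 0.0742).

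The ubiquitin ligase genes were not called in any comparison, and their values in VBA+ cortisol larvae fell into 2 pairs of libraries. The gene fbxo32 (ENSDARG00000040277) encodes the F-box subunit MAFbx, also called atrogin-1, which selects substrates for an SCF ubiquitin ligase in muscle. Its normalized counts were 430, 371, 1086 and 1066 in VBA+ cortisol libraries, against 254, 454, 234 and 322 in VBA+ vehicle libraries. Replicates 3 and 4 with cortisol stood above every other library of the series, whereas replicates 1 and 2 lay within the vehicle range. The mean fold was 2.15, and the log2 fold change of 1.10 ± 0.36 did not pass the test (SE, limma adjusted p 0.0627). It was 0.86 to 1.38 when any 1 library was left out, with adjusted p between 0.0616 and 0.15 in limma.

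The genes trim63a (ENSDARG00000028027) and trim63b (ENSDARG00000086685) encode copies of MuRF1, a RING-finger ligase that acts on proteins of the muscle thick filament. In VBA+ cortisol libraries trim63a had 885, 934, 2118 and 2214 normalized counts, against 1124, 1682, 1164 and 1304 in VBA+ vehicle libraries. Replicates 1 and 2 with cortisol were below all vehicle libraries, and replicates 3 and 4 were above all of them. For trim63b the VBA+ cortisol libraries had 461, 506, 901 and 1029, against 576, 718, 548 and 658 in VBA+ vehicle libraries, with the same arrangement. With this wide spread of the VBA+ cortisol libraries, log2 fold changes over 4 libraries were 0.11 ± 0.30 for trim63a and 0.13 ± 0.24 for trim63b (SE, limma adjusted p 0.822 and 0.718).

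**Figure D3:**
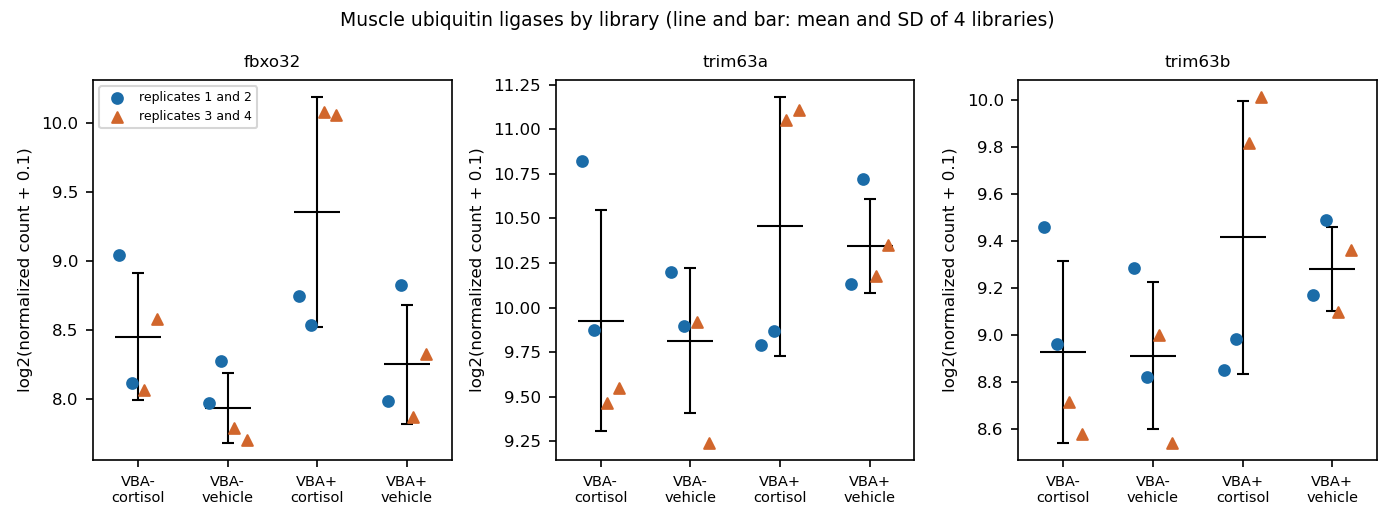
Log2 normalized counts of fbxo32, trim63a and trim63b in each library, with circles for replicates 1 and 2, triangles for replicates 3 and 4, and the mean and SD of each group of 4. VBA+ cortisol replicates 3 and 4 are the highest libraries of the series for all 3 genes, while replicates 1 and 2 of that group are the lowest VBA+ libraries for trim63a and trim63b.

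The difference between same-numbered pairs was measured for all genes. Replicate numbers do not pair cortisol with vehicle libraries in VBA+ larvae, as libraries with the same number departed from their group means with correlations of -0.34 to -0.09 across genes, so the parts are given as a description. With cortisol, trim63a was 1.51-fold lower in replicates 1 and 2 and 1.76-fold higher in replicates 3 and 4 of VBA+ larvae, and trim63b was 1.33-fold lower and 1.6-fold higher. The same differences for fbxo32 were 1.18-fold, with overlapping libraries, and 3.92-fold. Over all genes tested, 3.49% were lower without overlap in the first part and higher without overlap in the second. Among these genes was igf2a, 1.42-fold lower in the first part and 1.22-fold higher in the second, so the reversal was not particular to the ligases. The gene igf2b was 1.91-fold and 1.75-fold higher. The GR target klf9, which encodes a zinc finger transcription factor, was 1.62-fold and 2.99-fold higher. For igf2b and klf9 the VBA+ groups were separate, so any split of them gives the same direction. The study had also singled out klf9 from these libraries. Summed skeletal muscle markers were 1044375 to 1081005 over these 4 VBA+ cortisol libraries, and their part in the split of the ligases was not tested.

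**Figure D4:**
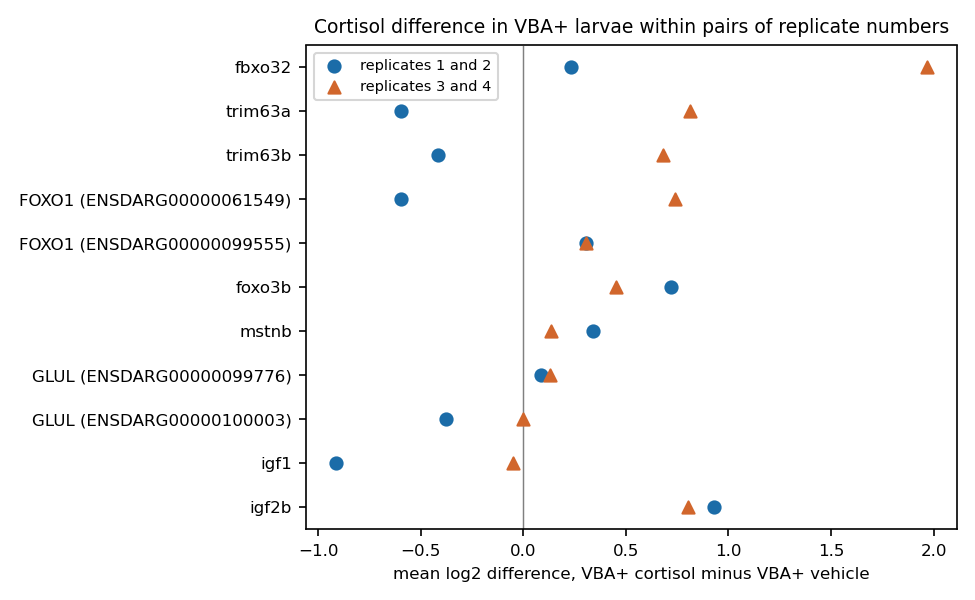
Mean log2 difference of VBA+ cortisol minus VBA+ vehicle libraries for the 11 genes, within replicates 1 and 2 (circles) and within replicates 3 and 4 (triangles). The parts lie on opposite sides of 0 for trim63a (-0.60 and 0.81), trim63b (-0.41 and 0.68) and the scarce FOXO1 (ENSDARG00000061549), and close together for igf2b (0.93 and 0.80).

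In VBA- larvae the ligases were highest in cortisol replicate 1, a library with the VBA+ level of fkbp5. VBA- cortisol libraries had 528, 278, 268 and 384 normalized counts of fbxo32, against 251, 310, 222 and 209 in VBA- vehicle libraries. Cortisol libraries overlapped vehicle libraries, and the mean difference was 0.52 ± 0.23 on the log2 scale (SE, limma adjusted p 1.0), or 0.32 to 0.65 when a library was left out, the lowest without VBA- cortisol replicate 1. For trim63a the VBA- cortisol libraries had 1802, 939, 708 and 750 and the VBA- vehicle libraries 1174, 954, 970 and 606. For trim63b they had 702, 498, 420 and 382 with cortisol and 623, 452, 512 and 372 with vehicle. Neither copy showed a difference beyond the spread of its libraries, at 0.11 ± 0.31 and 0.02 ± 0.22 (SE, limma adjusted p 1.0 for each). No gene was called with cortisol in VBA- larvae, 0% of those tested, and 1.79% had an unadjusted p under 0.05, none of the 11 among them. None of the 11 had groups apart there, beside 1.52% of all genes.

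Compared with VBA+ vehicle larvae, VBA- vehicle larvae had lower mean values of all 3 ligase genes, but none passed the test. The values of trim63a were 606 to 1174 normalized counts in VBA- vehicle and 1124 to 1682 in VBA+ vehicle libraries. The difference was -0.53 ± 0.19 for trim63a, -0.37 ± 0.15 for trim63b and -0.32 ± 0.21 for fbxo32 (SE, limma adjusted p 0.279, 0.331 and 0.52, or 0.173, 0.277 and 0.279 in a fit with the replicate block). In replicates 3 and 4 all 3 genes were lower in VBA- without overlap, by 1.61-fold, 1.38-fold and 1.27-fold, and in replicates 1 and 2 the libraries overlapped. Over all genes, 0.235% were called between the genotypes in vehicle (51 genes, or 195 in a fit with the replicate block), and 7.67% had groups that did not overlap, with none of the 11 in either count. An unadjusted p under 0.05 was found for 4 of the 11 genes, trim63a, trim63b, igf2b and GLUL (ENSDARG00000099776), and for 14.0% of all genes.

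Under cortisol, mean values of the ligases were again lower in VBA- than in VBA+ larvae, within the spread of the libraries. The differences were -0.90 ± 0.40 for fbxo32, -0.53 ± 0.40 for trim63a and -0.49 ± 0.30 for trim63b (SE, limma adjusted p 0.591, 0.598 and 0.591). Without VBA- cortisol replicate 1 the difference of trim63a was -0.82. In replicates 3 and 4 fbxo32 was 3.35-fold, trim63a 2.97-fold and trim63b 2.4-fold lower in VBA- cortisol libraries. In replicates 1 and 2 the differences were -0.06, 0.52 and 0.29 on the log2 scale. These parts are a description, as same-numbered libraries deviated in opposite directions here. Their correlations were -0.625 to -0.449 over genes with a mean of at least 75. Over all genes tested, 32.5% were apart in opposite directions in the 2 parts, as trim63a was. No gene, or 0% of those tested, was called between genotypes in cortisol, where 7.84% had an unadjusted p under 0.05, fbxo32 and mstnb among them. The cortisol effect in VBA- minus that in VBA+ larvae was -0.59 ± 0.48 for fbxo32, 0.004 ± 0.47 for trim63a and -0.12 ± 0.36 for trim63b (SE, limma adjusted p 0.727, 0.999 and 0.918), and without VBA- cortisol replicate 1 that of trim63a was -0.29 and that of trim63b -0.29. A single gene, 0.00461% of those tested, was called for the interaction, and 5.25% had an unadjusted p under 0.05, with igf2b the 1 gene of the 11 among them.

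Myostatin, a secreted member of the TGF-beta family, restrains muscle growth. Its gene mstnb (ENSDARG00000069133) had 26, 20, 40 and 46 normalized counts in VBA- cortisol and 44, 16, 50 and 49 in VBA- vehicle libraries. VBA+ cortisol libraries had 40, 56, 54 and 62, and VBA+ vehicle libraries 40, 35, 58 and 48. All VBA+ libraries had 35 or more, while 3 VBA- libraries had 26 or fewer, all of them replicates 1 or 2. The difference between genotypes was -0.74 ± 0.30 in cortisol and -0.29 ± 0.36 in vehicle (SE, limma adjusted p 0.591 and 0.746), with overlap in both media. Cortisol gave -0.21 ± 0.43 in VBA- and 0.24 ± 0.21 in VBA+ larvae, and the interaction was -0.45 ± 0.49 (SE, limma adjusted p 1.0, 0.445 and 0.766).

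Glutamine synthetase joins ammonia to glutamate. It is found in many tissues, among them muscle, liver and glia. GLUL (ENSDARG00000099776) had 4064, 3306, 4382 and 4382 in VBA- cortisol and 4129, 4064, 3948 and 3862 in VBA- vehicle libraries. Values in VBA+ cortisol libraries were 4802, 4960, 4960 and 4382, and in VBA+ vehicle libraries 4656, 4540, 4129 and 4382. The VBA- vehicle libraries reached only the lowest VBA+ vehicle value, 4129, and the difference was -0.15 ± 0.06 (SE, limma adjusted p 0.347). Between genotypes in cortisol it was -0.25 ± 0.12 (SE, limma adjusted p 0.591). Cortisol gave 0.003 ± 0.11 in VBA- and 0.11 ± 0.07 in VBA+ larvae, and the interaction was -0.11 ± 0.13 (SE, limma adjusted p 1.0, 0.301 and 0.784).

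GLUL (ENSDARG00000100003) had 5732, 5518, 3862 and 3948 normalized counts in VBA- cortisol libraries, against 4802, 4960, 4540 and 4203 in VBA- vehicle libraries. The cortisol libraries lay on both sides of the vehicle range, so that the mean difference was 0.02 ± 0.15 (SE, limma adjusted p 1.0). In VBA+ larvae it had 4540, 4302, 4656 and 4960 with cortisol, against 5732, 5732, 4656 and 4960 with vehicle, a difference of -0.19 ± 0.09 (SE, limma adjusted p 0.155). Between genotypes it differed by 0.02 ± 0.15 in cortisol and -0.19 ± 0.09 in vehicle, and the interaction was 0.21 ± 0.18 (SE, limma adjusted p 0.947, 0.385 and 0.731). Replicates 3 and 4 had identical values with both media, since the quantile normalization gives many genes shared steps. A further glutamine synthetase gene, glulc, had 22 to 46 normalized counts in VBA+ cortisol and 54 to 101 in VBA+ vehicle libraries. Its log2 fold change of -0.97 ± 0.27 came with a limma adjusted p of 0.0411, but its mean was under 75, so it was not called. Summed glial markers (3 of 7 matched) were 3280 to 3640 in VBA+ cortisol and 3558 to 4556 in VBA+ vehicle libraries. Liver markers (8 of 8) were 98499 to 105690 in VBA+ cortisol and 59311 to 97083 in VBA+ vehicle libraries, without overlap. They were 106751 to 135618 in VBA- vehicle libraries, also above all VBA+ vehicle libraries, and 73049 to 131375 in VBA- cortisol libraries. The part of glial and liver markers in the values of the GLUL genes was not tested. Of the other markers, exocrine pancreas (3 of 7) summed to 19185 to 29012 in VBA+ cortisol and 8844 to 20652 in VBA+ vehicle libraries, and neurons (5 of 8) to 6447 to 10796 in VBA+ cortisol and 5854 to 6980 in VBA+ vehicle libraries. Muscle progenitors (5 of 8) summed to 795 to 1014 in VBA+ cortisol and 865 to 927 in VBA+ vehicle libraries, and cardiac muscle (5 of 7) to 918 to 1266 in VBA+ cortisol and 708 to 1052 in VBA+ vehicle libraries. No marker matched was at 0 in every library.

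**Figure D5:**
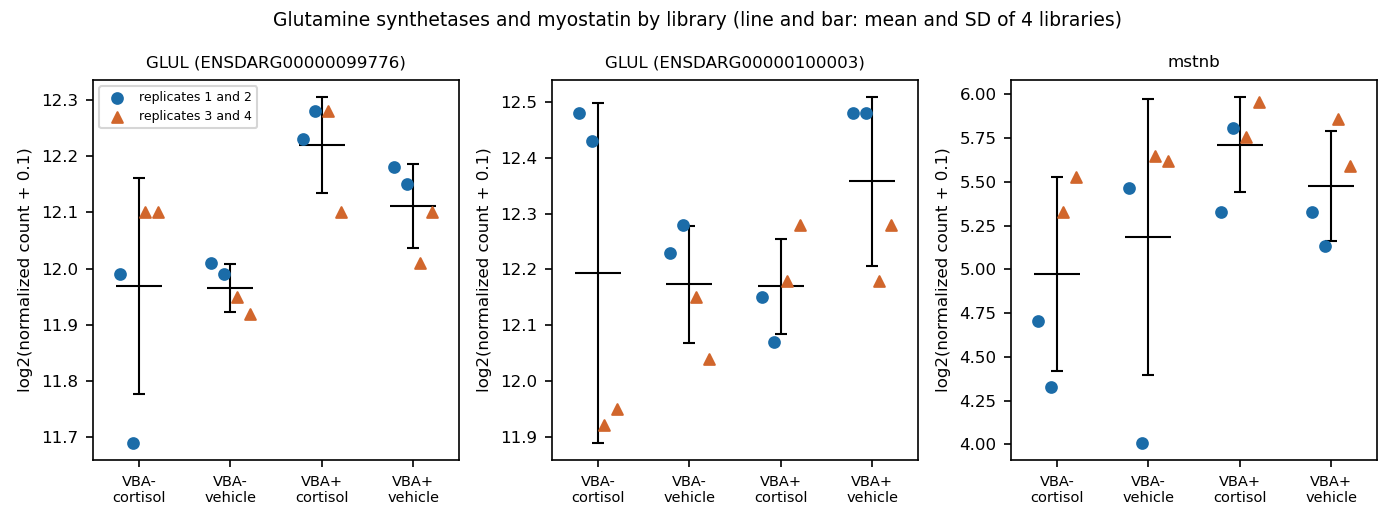
Log2 normalized counts of both GLUL genes and of mstnb in each library, with circles for replicates 1 and 2, triangles for replicates 3 and 4, and the mean and SD of each group of 4. The VBA- cortisol libraries of GLUL (ENSDARG00000100003) fall into a high pair at 5732 and 5518 and a low pair at 3862 and 3948.

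Across the 16 libraries some of the genes varied together. These correlations are descriptions over libraries that share groups and a normalization, and they were not set against those of all gene pairs. The copies trim63a and trim63b had a Pearson r of 0.98 with each other, and fbxo32 had 0.76 with trim63a and 0.74 with trim63b. The FoxO genes foxo3b and FOXO1 (ENSDARG00000099555) had an r of 0.87, and foxo3b had 0.79 with igf2b and -0.75 with GLUL (ENSDARG00000100003). Other pairs were also correlated, as foxo3b had 0.653 with mstnb and 0.605 with GLUL (ENSDARG00000099776), and trim63a had 0.598 with GLUL (ENSDARG00000100003). The ligases varied apart from the FoxO genes, with an r of 0.30 between fbxo32 and foxo3b and of -0.18 between trim63a and foxo3b.

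Among 13772 genes with a mean of at least 75, the patterns most like that of foxo3b over the 16 libraries were those of NOTCH1 (r 0.98), PLEKHO2 (0.98) and ZNF319 (0.97). For igf2b they were TMEM131 (0.95), EI24 (0.93) and FOXK1 (0.92). The ligases were added to this search after their values were seen. The genes most like fbxo32 were LPIN1 (0.95), which encodes the phosphatidate phosphatase lipin 1, KLHL38 (0.93) and AMPD3 (0.91), which encodes an AMP deaminase. In the RefSeq annotation a klhl38 gene, klhl38b, is the neighbor of fbxo32. After its own copy, trim63a was most like SLC25A43 (0.93) and CHAC1 (0.92), and trim63b was most like ucp3 (0.90), a mitochondrial uncoupling protein gene of muscle, and SLC25A43 (0.90).

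Other genes of these pathways were taken from lists of 162 symbols, of which 95 gene IDs were matched without ambiguity and tested. With cortisol in VBA+ larvae 14 of the 95 rose and 2 fell, 16.8% beside 8.22% of all genes, and their median log2 fold change was 0.18. Only 13772 of the 21686 genes tested reached the mean of 75 needed for a call. The share called is therefore above 8.22% among genes that could be called. None of the 95 was called in the other 4 comparisons. Hardly any gene was called there. Over all genes the share was 0% for cortisol in VBA-, 0.235% between genotypes in vehicle and 0% in cortisol, and 0.00461% for the interaction. The lack of calls among the 95 therefore says little about these genes. For cortisol in VBA+ larvae the number of calls over all genes, 1783, depended on the libraries and the fit. It was 414 to 2925 when 1 library was left out (lowest without VBA+ cortisol replicate 2, highest without VBA+ cortisol replicate 4), 21 with all 16 libraries in the fit and 6 with the replicate block, so that at most 6 of these 16 pathway calls could hold with the block. The lists were chosen with earlier results of these data known, so their shares are descriptions. The study had itself singled out klf9, a gene of the list that follows, from these libraries. The list of glucocorticoid and stress brakes on growth had 6 of 12 genes higher and 1 lower (58.3% called, beside 8.22% of all genes), with a median of 0.46. With gene IDs that share a name with another copy, added after seeing the data, it had 7 of 22 higher and 1 lower (36.4%), with a median of 0.32. It included KLF9 (1.14 ± 0.21), DDIT4 (0.69 ± 0.15), whose product REDD1 inhibits mTORC1, KLF15 (0.60 ± 0.11), a glucocorticoid-induced regulator of amino acid breakdown in mouse muscle, and PDK4 (0.55 ± 0.15), a kinase that shuts off pyruvate dehydrogenase (log2 fold changes and SE, limma adjusted p 0.0133, 0.023, 0.0143 and 0.0364). The gene that fell, eif4ebp1 (-0.52 ± 0.12), encodes a repressor of cap-dependent translation (SE, limma adjusted p 0.0226).

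In the growth hormone axis 3 of 11 genes rose and none fell (27.3%, beside 3.6% of all genes called higher), with a median of 0.58, and in the wider match 4 of 13 rose (30.8%). The 3 genes were SOCS1 (0.88 ± 0.24), SOCS2 (0.66 ± 0.12) and stat5a (0.77 ± 0.23) (SE, limma adjusted p 0.038, 0.0135 and 0.049). SOCS1 and SOCS2 encode suppressors of cytokine and growth hormone receptor signaling, and stat5a encodes a transcription factor downstream of that receptor. The wider match added SOCS3 (1.35 ± 0.19, SE, limma adjusted p 0.00813). SOCS3 had 284 to 394 normalized counts in VBA+ cortisol and 92 to 178 in VBA+ vehicle libraries. Among 8 genes of IGF receptors, binding proteins and related ligands only IGF2R was called, which in mammals encodes a receptor that clears IGF2. It had 338 to 490 normalized counts in VBA+ cortisol and 218 to 292 in VBA+ vehicle libraries, a log2 fold change of 0.72 ± 0.14 (SE, limma adjusted p 0.0154). In the wider match 5 of 16 in this list rose (31.2%, against 12.5% by the narrower match), INSR (0.82 ± 0.13), IGF1R (0.60 ± 0.15), IGFBP2 (1.43 ± 0.42) and IGFBP5 (0.84 ± 0.18) as well as IGF2R (SE, limma adjusted p 0.0108, 0.0282, 0.0462 and 0.0193 for the added genes). Over all lists the wider match gave 23 higher and 2 lower of 160 (15.6%, beside 8.22% of all genes).

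In each of 6 further lists at most 1 of the genes matched without ambiguity was called in VBA+ larvae. Over all genes tested 8.22% were called there. Of 15 genes of insulin and IGF signal transduction, PIK3CA, the catalytic subunit of PI3 kinase, rose by 0.71 ± 0.14. Of 6 genes of myostatin and activin signaling, SMAD2, which carries these signals to the nucleus, rose by 0.53 ± 0.11. Of 6 genes of glutamine and ammonia handling, glud1b, a glutamate dehydrogenase gene, rose by 0.55 ± 0.15. Of 18 other ubiquitin ligases and partners, NEDD4L rose by 0.74 ± 0.16, and of 15 autophagy genes ATG12 fell by 0.66 ± 0.20 (log2 fold changes and SE, limma adjusted p 0.0183, 0.0192, 0.0359, 0.0224 and 0.049). None of 4 other FoxO factor genes was called. In the wider match 4 of 16 genes of glutamine and ammonia handling rose (25.0%), SLC38A3, GLS2 and SLC1A2 as well as glud1b. The other lists of this paragraph gained no call by that match.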

How the data were processed

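Whole-larva polyA RNA had been sequenced as paired-end reads. Per the labels, the authors trimmed reads with Trimmomatic 0.36 (the methods of the study give another version), aligned them to the zebrafish genome with STAR 2.6.1b, estimated expression with RSEM 1.3.0 and normalized it with EDASeq, with full quantiles between libraries. The values the authors deposited are log2 of the normalized count plus 0.1. Every library therefore holds the same set of values, including 310 zeros, differences in total RNA are removed, and no counting error can be given. The authors tested counts with DESeq2 1.24.0. The deposited values are normalized and on a log2 scale, and limma 3.58.1 was used here in place of a count model (lmFit and eBayes with trend, R 4.3.3). It was run on genes whose normalized counts averaged 5 or more, with the limits of the study for calls. Numbers of calls therefore need not match those of the study. Pairwise comparisons used 8 libraries and the interaction used 16. The script was tested on simulated data.

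The members and lists were chosen with earlier results of these data known. All members are named, with up to 5 called genes per pathway list and the 3 genes most like each called member. Gene names came from a table of names, and values of close copies such as trim63a and trim63b are uncertain where reads fit both. Other cell type markers are described by their sums. The labels state no pairing, and the study collected the pools of a condition in sequence. The main fits were therefore unpaired in every comparison. From the values alone, same-numbered VBA- and VBA+ vehicle libraries deviated together. Their correlations were 0.253, 0.212, 0.309 and 0.235 over genes with a mean of at least 75, but 0.092 to 0.122 over all tested genes. For that comparison some results of the replicate block, an alternative fit, are given beside the unpaired ones. For cortisol in VBA- the correlations were 0.288, 0.657, 0.078 and 0.67, of which 1 is under the limit of 0.1, so that comparison was not treated as paired. Correlations between libraries of a group were 0.8947 to 0.9595. The split into replicates 1 and 2 against 3 and 4 is not a stated batch. A planned search of promoters for GR and FoxO motifs was not run, because no promoter sequence was used here. Alternatives were another pseudocount, no filter on low values, no limit on the mean, no trend, equal medians, library weights, all 16 libraries in each fit, the replicate block, a term for the split and leaving out each library.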

Additional observations from a re-analysis of the deposited data

Results flagged for a closer look

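In VBA- vehicle replicate 2, mstnb had 16 normalized counts, while replicates 1, 3 and 4 of that group had 44, 50 and 49. This was 1 library standing apart among 44 groups of 4 values examined, and chance alone gives about 1 in 20.

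The copies trim63a and trim63b moved in opposite directions in the parts of the VBA+ comparison. With cortisol, trim63a differed by -0.597 in replicates 1 and 2 and by 0.814 in replicates 3 and 4 on the log2 scale, and trim63b by -0.413 and 0.681, without overlap of libraries in any part. Between VBA- and VBA+ cortisol larvae trim63a differed by 0.517 and -1.571. In the same comparison FOXO1 (ENSDARG00000099555) differed by -0.842 and 0.082, and GLUL (ENSDARG00000100003) by 0.348 and -0.299. With cortisol in VBA- larvae GLUL (ENSDARG00000100003) differed by 0.205 and -0.162. None of these differences between parts was tested, each part holds 2 libraries against 2, and opposite directions of this kind were found in 1345 of the 21686 genes tested for the VBA+ cortisol effect, 4116 for the VBA- cortisol effect and 7047 between genotypes under cortisol.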

How the results depend on the processing

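The calls of igf2b and foxo3b for cortisol in VBA+ larvae held when each library was left out, with log2 fold changes of 0.824 to 0.905 and 0.539 to 0.628 (adjusted p at most 0.0138 and 0.0325 in limma) and 2 genes called each time. With all 16 libraries in the fit 1 of the 11 genes was called, igf2b, and foxo3b had an adjusted p of 0.158. With the replicate block 0 were called (adjusted p 0.0773 for both, and 6 genes called over all genes, against 1783 without the block and 21 with all 16 libraries). In that comparison same-numbered libraries did not deviate together, and no pairing is stated for any comparison. In the vehicle comparison, where they deviated together weakly, the block called 195 genes against 51, none of them among the 11. The block changed no other call of the 11 genes. Over all genes, cortisol in VBA+ gave 619 calls without trend and 2770 with library weights, and 454, 414, 440 and 690 without VBA+ cortisol replicate 1 or 2 or VBA+ vehicle replicate 1 or 2. The vehicle comparison gave 16 with all 16 libraries, 8 with no filter, 1 without trend, 363 with a term for the split and 1 to 63 with a library left out. Those without VBA+ vehicle replicate 2, 3 or 4 numbered 1, 2 and 1. With all 16 libraries 5 genes were called for cortisol in VBA- and 10 between genotypes in cortisol, against 0 in each with 8 libraries, and none of the 11 was among them. Small differences changed sign in alternatives without passing a test, and the cause was not tested. With library weights these were trim63a (-0.092) and trim63b (-0.028) for cortisol in VBA+, trim63a (-0.031), trim63b (-0.092) and GLUL (ENSDARG00000100003) (-0.058) for cortisol in VBA-, GLUL (ENSDARG00000100003) (-0.04) between genotypes in cortisol, and trim63a (-0.11) in the interaction, which was -0.165 without both VBA- libraries that had a VBA+ level of fkbp5, chosen after seeing the data. With a library left out, the ranges that crossed 0 were as follows. For cortisol in VBA+ they were -0.111 to 0.33 for trim63a, -0.064 to 0.322 for trim63b and -0.654 to 0.52 for FOXO1 (ENSDARG00000061549). For cortisol in VBA- they were -0.184 to 0.265 for trim63a, -0.16 to 0.14 for trim63b, -0.126 to 0.289 for foxo3b, -0.077 to 0.258 for FOXO1 (ENSDARG00000099555), -0.604 to 0.002 for mstnb, -0.04 to 0.096 for GLUL (ENSDARG00000099776) and -0.075 to 0.114 for GLUL (ENSDARG00000100003). Between genotypes they were -0.035 to 0.198 for foxo3b and -0.447 to 0.099 for mstnb in vehicle and -0.073 to 0.117 for GLUL (ENSDARG00000100003) in cortisol, and in the interaction -0.292 to 0.223 for trim63a and -0.306 to 0.08 for trim63b. Of the other values, 973 of single genes and 91 counts of calls kept their direction and side of the threshold. In the main fits only igf2b and foxo3b were called, for cortisol in VBA+ larvae. Most of these values therefore only stayed uncalled, which is no measure of robustness. Depth is unknown, so limits of detection for the scarce igf1, mstnb and FOXO1 (ENSDARG00000061549) cannot be given.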
